A study of Rattus norvegicus with 6 samples.

Results

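Mki67, Top2a and Cdk1 are 3 genes whose transcripts are used as markers of dividing cells, and they were followed here in cultured neonatal rat ventricular cardiomyocytes exposed to erastin. The genes were chosen by name and taken from the table by their Ensembl IDs, ENSRNOG00000028137 for Mki67, ENSRNOG00000053047 for Top2a and ENSRNOG00000000632 for Cdk1. They are 3 of 34052 features in the table, and all 3 were among the 13576 features that passed the filter on low values. The cells were heart muscle cells taken from newborn rat ventricles and kept in culture. They had received erastin at 10 µM over 24 h (3 libraries) or were controls (3 libraries). The deposited data are titled erastin against vehicle, but the labels do not state which vehicle the controls received or for how long. Erastin inhibits cystine uptake in exchange for glutamate and thereby starts ferroptosis, a death of cells that depends on iron and on the peroxidation of lipids. The labels give no strain, sex or genetic change, and do not say whether replicates are separate litters or cultures. The p-values therefore set the difference between the groups only against variation between these libraries, and that variation may be technical.

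Cells that enter the division cycle switch on a shared set of genes, first those for DNA replication and later those for mitosis. Cdk1 encodes the cyclin-dependent kinase that, bound to cyclin B, drives entry into mitosis. Top2a encodes topoisomerase II alpha, the enzyme that untangles and separates the copied chromosomes, and Mki67 encodes the Ki-67 protein, which coats mitotic chromosomes and keeps them apart. Rat ventricular cardiomyocytes leave the division cycle in the days after birth, and primary cultures can also hold dividing fibroblasts and other non-muscle cells. In RNA from a whole culture, fewer cells of a type and less RNA per cell cannot be told apart.

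The levels were deposited as FPKM, which divides the fragments by feature length and by library total, so they can be compared between genes. The steps of the FPKM gave library totals of 11506854 to 14914827 reads in control and 11126968 to 12017459 reads in erastin libraries. The RefSeq table paired 0 of the 34052 feature IDs with a symbol. The labelled cell type was for this reason not checked against cardiomyocyte markers, and markers of fibroblasts, endothelial cells, smooth muscle cells and macrophages, and the other genes of the cell cycle, were not analysed here.

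The promoters of genes of the late division cycle commonly carry a cell cycle genes homology region (CHR), the site of the MuvB protein complexes that repress these genes in resting cells and activate them in dividing cells. They also often carry CCAAT boxes, the sites of the factor NF-Y. The CHR motif was chosen after the data were seen. Genes of this kind commonly carry it, so its presence in all 3 genes is not an independent result. The stretches around each CHR-like match (TTTGAA on either strand) in the RefSeq promoter windows of the 3 genes are shown. They are written 5′ to 3′ on the strand of the gene, with the match in capitals, and lie on assembly GRCr8 at chr1:199952693-199952722 and chr1:199952675-199952704 (minus strand) for Mki67, at chr10:84473098-84473127 (minus strand) for Top2a, and at chr20:19265209-19265238 and chr20:19265265-19265294 (plus strand) for Cdk1.
Mki67, match 1: ttagcgccagaaTTTGAAccgccgttttcg
Mki67, match 2: ccgccgttttcgTTTGAAttgggcgggcac
Top2a, match 1: gctagatgaatgTTCAAAtgaaactaggga
Cdk1, match 1: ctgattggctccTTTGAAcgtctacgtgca
Cdk1, match 2: taccgcggtgagTTTGAAactgctggcact

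All 3 genes fell with erastin. Top2a fell most in mean FPKM, 2.46-fold, followed by Mki67 at 1.60-fold and Cdk1 at 1.44-fold, and for each gene every erastin library lay below every control library. For comparison, 24.1% of all 13576 tested features were lower in erastin libraries at a Benjamini-Hochberg adjusted p under 0.05 in limma, 42.3% were higher, and in 26.3% the groups did not overlap and erastin was lower. Among the 3665 features of similar level, with a mean of 1 to under 5 FPKM, 22.6% were lower and 24.7% higher. The median log2 fold change of all tested features was 0.13, in the direction opposite to these genes. Among the features with a mean of 1 to under 5 FPKM it was nearer 0, at 0.04.

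Top2a stood at 2.39, 2.30 and 2.91 FPKM in control replicates 1, 2 and 3. It stood at 0.985, 1.15 and 0.953 FPKM in erastin replicates 1, 2 and 3. The lowest control library was thus 2.00 times the highest erastin library, the widest separation of the 3 genes. The means were 2.53 ± 0.333 FPKM in control and 1.03 ± 0.106 FPKM in erastin libraries (SD, n = 3), 59.3% lower with erastin. The log2 fold change on the log2(FPKM + 1) scale was -0.80 (SE 0.11, 95% interval -1.04 to -0.55, limma adjusted p = 0.000268). Adding 1 FPKM compresses the change of scarce transcripts, and limma's voom method on the recovered reads gave -1.27 (SE 0.14, adjusted p = 1.99e-05). Of the tested features, 7.45% had a log2 fold change below that of Top2a on the log2(FPKM + 1) scale. Top2a passed the filter on low values through its control libraries, since of the erastin libraries replicate 2 alone reached 1 FPKM. With no filter on low values, its limma adjusted p on that scale was 0.000852.

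Mki67 stood at 2.39, 2.54 and 3.14 FPKM in control replicates 1, 2 and 3. It stood at 1.39, 1.73 and 1.92 FPKM in erastin replicates 1, 2 and 3. Control replicate 3 was the highest library for Mki67, as it was for Top2a, and erastin replicate 1 was the lowest. The means were 2.69 ± 0.397 FPKM in control and 1.68 ± 0.268 FPKM in erastin libraries (SD, n = 3), 37.6% lower with erastin. The log2 fold change was -0.46 (SE 0.12, 95% interval -0.74 to -0.19, limma adjusted p = 0.00932), and 14.7% of the tested features had a lower value. With voom on the recovered reads it was -0.67 (SE 0.13, adjusted p = 0.00101).

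Cdk1 stood at 4.91, 5.39 and 4.49 FPKM in control replicates 1, 2 and 3. It stood at 4.07, 2.91 and 3.29 FPKM in erastin replicates 1, 2 and 3. The groups came closest for this gene, with the lowest control library 1.10 times the highest erastin library. Control replicate 3, the highest for the other two genes, was the lowest control library for Cdk1, and erastin replicate 1, the lowest for Mki67, was the highest erastin library for Cdk1. The means were 4.93 ± 0.447 FPKM in control and 3.42 ± 0.589 FPKM in erastin libraries (SD, n = 3), 30.6% lower with erastin. The log2 fold change was -0.43 (SE 0.11, 95% interval -0.69 to -0.17, limma adjusted p = 0.0104), and 15.8% of the tested features had a lower value. Voom on the recovered reads gave -0.55 for Cdk1, with the largest SE of the 3 genes (SE 0.16, adjusted p = 0.0106). For each of the 3 genes taken alone, an exact two-sided permutation test over the libraries gave p = 0.1, the smallest that 3 against 3 libraries can give.

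**Figure D1:**
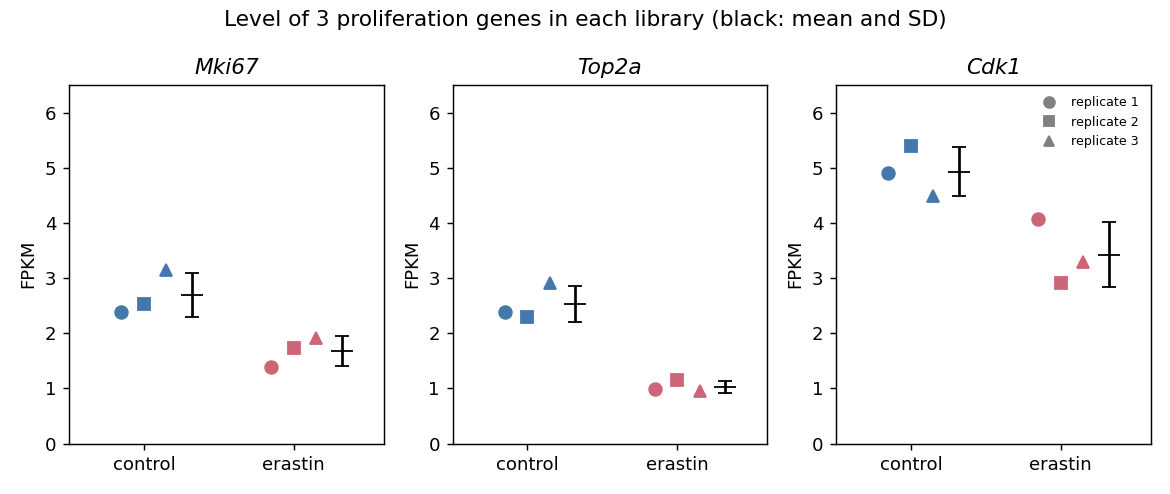
FPKM of Mki67, Top2a and Cdk1 in each control (blue) and erastin (red) library, with the symbol shape giving the replicate number and black bars the mean and SD (n = 3). Every erastin library lies below every control library in each panel, with the widest gap for Top2a (0.985, 1.15 and 0.953 against 2.39, 2.30 and 2.91 FPKM) and the narrowest for Cdk1.

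**Figure D2:**
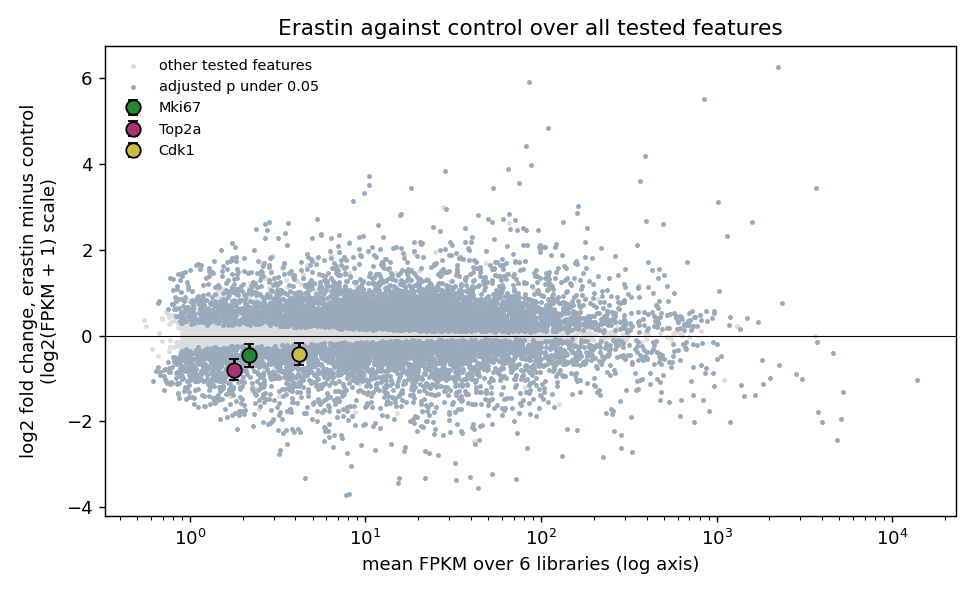
Log2 fold change of erastin minus control on the log2(FPKM + 1) scale against the mean FPKM over 6 libraries (log axis) for the 13576 tested features, with features at a limma adjusted p under 0.05 in blue-grey and the 3 genes with their 95% intervals. The 3 genes lie at the low end of the levels and below 0, at -0.80 for Top2a, -0.46 for Mki67 and -0.43 for Cdk1.

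The 3 transcripts were scarce in control and in erastin libraries. By mean FPKM over the 6 libraries, 25.5% of the tested features lay below Cdk1 (4.18 FPKM), 14.2% below Mki67 (2.18 FPKM) and 11.2% below Top2a (1.78 FPKM), against a median level of 12.5 FPKM. Cdk1 was the highest of the 3 in every library. Mki67 was above Top2a in every library, at 1.00 to 1.10 times its FPKM in control and 1.41 to 2.01 times in erastin libraries. In control libraries the difference between their mean FPKM was smaller than the SD of either gene.

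The reads behind these levels differed between the genes because their counted lengths differed, 9880 bases for Mki67, 5279 for Top2a and 1257 for Cdk1. Mki67 rested on 272 to 374 reads in a control library and 153 to 211 in an erastin library. Top2a rested on 145 to 181 reads in a control library and 56 to 73 in an erastin library. Cdk1, the highest of the 3 per length, rested on the fewest, 65 to 101 in a control library and 44 to 57 in an erastin library. Read counting alone would give Cdk1 an SD of 0.559 FPKM in control and 0.488 FPKM in erastin libraries, close to the SDs seen between libraries. The gap of 0.427 FPKM between its lowest control and highest erastin library was smaller than either. For Mki67, counting alone would give an SD of 0.147 FPKM in control and 0.122 FPKM in erastin libraries, below the observed 0.397 and 0.268 FPKM. For Top2a it would give 0.196 FPKM in control libraries, below the observed 0.333, and 0.130 FPKM in erastin libraries, where the observed SD was 0.106. RefSeq on GRCr8 lists 1 pseudogene named after Mki67, 1 named after Cdk1 and 0 named after Top2a, and the counting of reads shared with such copies is not described in the labels.

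The ratio between the genes within a library shows whether they fell by different amounts. The FPKM of Mki67 was 1.00, 1.10 and 1.08 times that of Top2a in control replicates 1, 2 and 3. It was 1.41, 1.50 and 2.01 times that of Top2a in erastin replicates 1, 2 and 3, so every erastin library was above every control library. The log2 fold change of Top2a was 0.33 below that of Mki67 on the log2(FPKM + 1) scale (-0.33, exact two-sided permutation p = 0.1, adjusted over 3 pairs p = 0.3). With this number of libraries no pair could reach an adjusted p under 0.05.

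The FPKM of Cdk1 was 2.06, 2.34 and 1.54 times that of Top2a in control replicates 1, 2 and 3, and 4.13, 2.53 and 3.45 times in erastin replicates 1, 2 and 3. These ratios did not overlap either, although control replicate 2 and erastin replicate 2 were close. On the log2(FPKM + 1) scale the groups overlapped, and the log2 fold change of Top2a minus that of Cdk1 was -0.37 (exact permutation p = 0.2, adjusted p = 0.3). That value depended on the added 1 FPKM. With pseudocounts of 0.1 and 0.01 FPKM it was -0.69 and -0.75 (exact permutation p = 0.1 for each, not adjusted). The FPKM of Cdk1 was 1.43 to 2.12 times that of Mki67 in control libraries and 1.69 to 2.93 times in erastin libraries, which overlapped. The log2 fold changes of Mki67 and Cdk1 differed by -0.03 (exact permutation p = 1, adjusted p = 1). This difference changed sign with the libraries used, to 0.11 without control replicate 3 and 0.15 without erastin replicate 1. With all 6 libraries and quantile normalization Cdk1 fell slightly more, at -0.50 against -0.47 for Mki67. Mki67 fell more with smaller pseudocounts, where the difference was -0.13 (0.1 FPKM) and -0.15 (0.01 FPKM). It also fell more with voom on the recovered reads, at -0.67 against -0.55 for Cdk1. The order of Mki67 and Cdk1 was thus not settled.

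**Figure D3:**
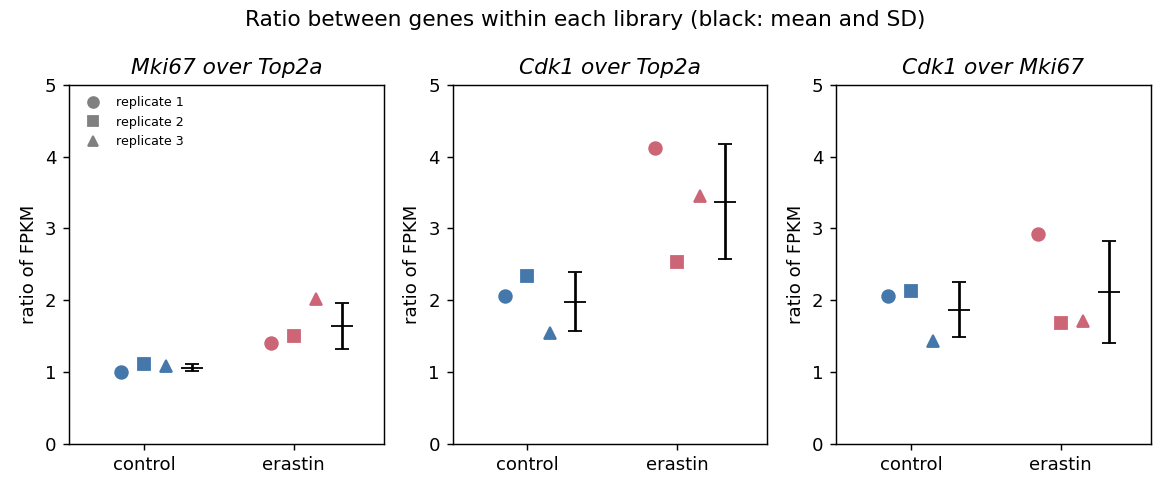
Ratio of the FPKM of 2 genes within each control (blue) and erastin (red) library, with the symbol shape giving the replicate number and black bars the mean and SD (n = 3). Mki67 over Top2a was 1.06 ± 0.0528 in control and 1.64 ± 0.325 in erastin libraries, Cdk1 over Top2a was 1.98 ± 0.406 and 3.37 ± 0.801, and Cdk1 over Mki67 overlapped between the groups.

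Other features followed the same pattern closely over the 6 libraries. The measure of likeness was Pearson's r over 6 libraries between a feature's log2(FPKM + 1) and the mean of the standardised values of the 3 genes, computed for 13301 features with a mean of at least 1 FPKM. It was at least 0.95 for 1823 of them, and a feature that differs strongly between the groups reaches a high r from that difference alone. The closest was ENSRNOG00000048924, at 9.70, 11.7 and 13.0 FPKM in control replicates 1, 2 and 3 and 2.39, 2.05 and 2.53 FPKM in erastin replicates 1, 2 and 3. ENSRNOG00000016731 followed, at 248, 278 and 299 FPKM in control and 125, 117 and 129 FPKM in erastin libraries. Both features were above the 3 genes in mean level. Their log2 fold changes were -1.90 and -1.14 on the log2(FPKM + 1) scale, which compresses the change of the 3 scarce genes more than that of these features. No table used here gives their symbols. The 3 genes themselves correlated less well with their own mean, with r of 0.98 for Top2a, 0.91 for Mki67 and 0.86 for Cdk1.

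Each of the 3 promoter windows held a CHR-like match and CCAAT boxes. The RefSeq windows run from 250 bases before to 50 bases after a gene's start, and matches were sought on both strands. TTTGAA was found in 18.3% of the 33469 rat windows and CCAAT in 37.5%, and 7.41% held both, as did all 3 of these genes. Mki67 held 2 matches to TTTGAA, which began 117 and 99 bases before the start, Cdk1 held 2, at 72 and 16 bases, and Top2a held 1, at 22 bases. At least 2 matches were found in 2.51% of all windows. Mki67 and Top2a each held 4 CCAAT boxes, which 0.675% of all windows reached, and Cdk1 held 3, which 3.02% reached. In Mki67 the inner CHR-like match and a CCAAT box shared 1 base. An E2F-like 8-base match (TTTCCCGC, TTTCGCGC, TTTGCCGC or TTTGGCGC) was found in Cdk1, 133 bases before its start, and in 2.14% of all windows. TATAAA, which 14.2% of all windows held, was not among the letters of these 3 windows. GGGCGG, which 33.1% of all windows held, was also found in all 3, with 7 matches in Mki67, 1 in Top2a and 1 in Cdk1. A match describes the letters, and binding of a factor was not measured.

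The longer upstream sequences show the order of those matches that lie outside the RefSeq span of Top2a and Cdk1. CCAAT boxes (ATTGG on the strand printed) and CHR-like matches are in capitals. The Top2a stretch is chr10:84473094-84473343 on the minus strand of GRCr8, and the Cdk1 stretch is chr20:19265043-19265251 on the plus strand, which ends at the outermost RefSeq start of the gene.
Top2a: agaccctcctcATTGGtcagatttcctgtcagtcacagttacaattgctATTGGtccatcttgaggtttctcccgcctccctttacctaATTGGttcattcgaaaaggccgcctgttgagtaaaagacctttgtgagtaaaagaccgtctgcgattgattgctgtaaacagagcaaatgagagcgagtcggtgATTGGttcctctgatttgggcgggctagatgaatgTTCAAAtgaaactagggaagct
Cdk1: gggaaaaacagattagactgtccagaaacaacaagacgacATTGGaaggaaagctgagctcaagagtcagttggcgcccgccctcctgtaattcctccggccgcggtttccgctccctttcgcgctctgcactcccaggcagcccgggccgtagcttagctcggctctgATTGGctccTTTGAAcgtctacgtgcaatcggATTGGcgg
In Top2a the CCAAT box nearest the start, 57 bases before it, was followed by the CHR-like match at 22 bases. In Cdk1 the CCAAT box at 81 bases was followed by the CHR-like match at 72 bases. The box at 49 bases was followed by the match at 16 bases, which lies past the end of the printed stretch. Too little of the Mki67 window, if any, lies outside the span of the gene in RefSeq for a longer stretch. Its short stretches alone are printed.

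**Figure D4:**
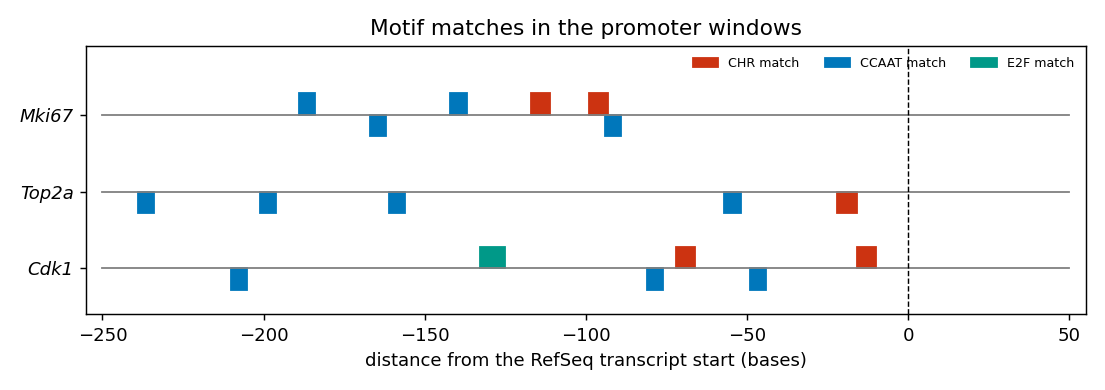
Positions of CHR, CCAAT and E2F matches in the promoter windows of Mki67, Top2a and Cdk1, in bases from the RefSeq transcript start (dashed line), with matches on the strand of the gene above each line and matches on the other strand below it. All 3 windows hold CCAAT boxes and CHR matches before the start, and of these 3 the Cdk1 window holds an E2F match.

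Another way of scaling or testing left the direction of all 3 genes as it was. Because every erastin library lay below every control library, leaving out a library, changing the pseudocount or using voom could not reverse it. Centring could not reverse it either, since the shift it removes was in the opposite direction. With each library centred on its median log ratio, which removes a shift of 0.13 between the groups, the log2 fold changes were -0.93 for Top2a, -0.59 for Mki67 and -0.56 for Cdk1 (limma adjusted p = 0.000127, 0.00299 and 0.00315). By the same scaling 31.6% of all tested features were lower in erastin libraries. Voom with centring gave -1.42 for Top2a, -0.82 for Mki67 and -0.70 for Cdk1. Top2a had the lowest value of the 3 genes in each of the 15 alternatives, and Mki67 and Cdk1 changed places between them.

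**Figure D5:**
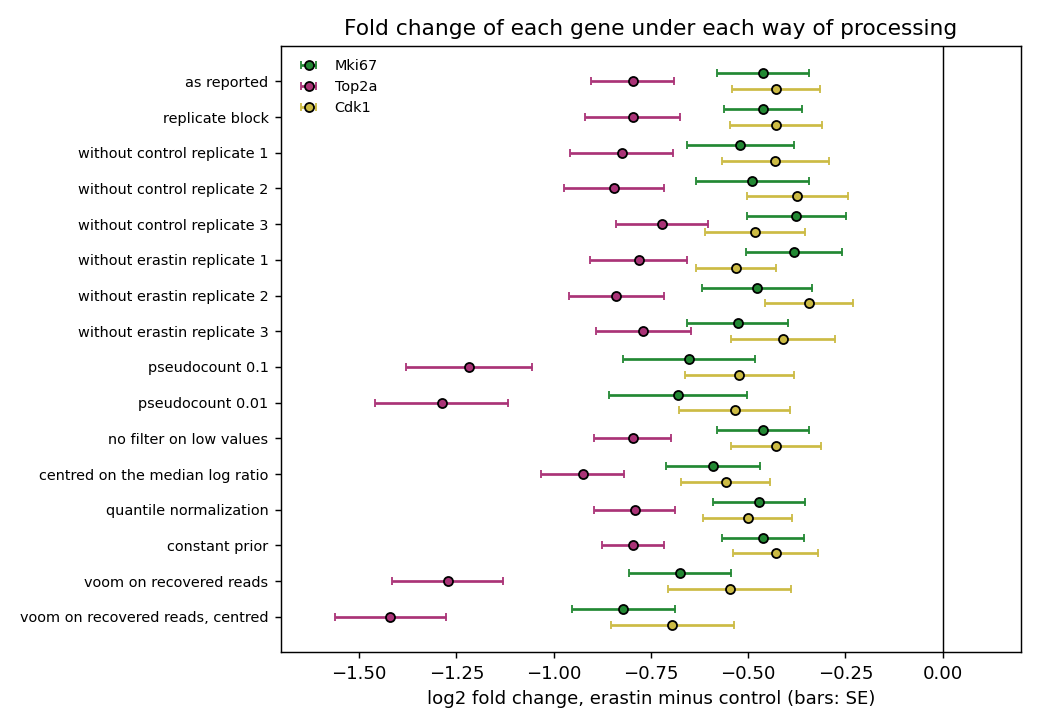
Log2 fold change of erastin minus control for Mki67, Top2a and Cdk1 as reported and under 15 alternatives, with bars giving the SE. All values lie below 0, between -1.42 and -0.72 for Top2a, -0.82 and -0.38 for Mki67 and -0.70 and -0.34 for Cdk1, and on the log2(FPKM + 1) scale the values are nearer 0 than with smaller pseudocounts or with voom.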

How the data were processed

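Poly(A) RNA libraries with a marked second strand were sequenced as paired ends, per the labels' protocols. The authors deposited 1 table of FPKM with 6 libraries. The submitters' processing notes name HISAT2 2.0.5 and DESeq2 without saying what each did. Counting tool, build and annotation: not given in the sources used here. Libraries were grouped by title.

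The 13576 features that reached 1 FPKM in 3 or more libraries were tested with limma 3.58.1 (R 4.3.3) on log2(FPKM + 1). The prior was trended and robust, and p-values were adjusted by Benjamini-Hochberg over all of them, at 0.05. Whole reads, library totals and counted lengths were recovered from the FPKM steps (Python 3.11.15). The SDs from counting alone cover counting error only, and the SEs of voom also cover variation between libraries. The mean chi-square per feature between libraries of a group was 2.87 to 5.23, so none was counted as a copy. Differences between genes were tested over libraries by exact permutation, two-sided.

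The 3 genes and the gene lists were chosen with earlier results of these data known. Beside the 3 genes, the rule names the 2 features most like them by ID. The 15 gene and marker lists, fixed by symbol, were not used, since 0 IDs matched the RefSeq table. The alternatives were the replicate block, each library left out, 2 pseudocounts, 2 filters, centring, quantile normalization, a constant prior, voom on recovered reads with and without centring, and stricter thresholds. The range of 1 to under 5 FPKM, the motifs and the ratios of FPKM without a pseudocount were chosen after the data were seen.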

Additional observations from a re-analysis of the deposited data

How the results depend on the processing

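Top2a, Mki67 and Cdk1 stayed lower in erastin libraries, with limma adjusted p under 0.05, in each of the 15 alternatives that tested them. The direction could not reverse where a library was left out, or where the pseudocount, filter, prior or replicate block changed. Nor could it reverse with voom or with centring, which moved the fold changes further below 0. With 1 library left out, the log2 fold changes were -0.84 to -0.72 for Top2a, -0.53 to -0.38 for Mki67 and -0.53 to -0.34 for Cdk1, with limma adjusted p of at most 0.00159, 0.0372 and 0.0397. A filter on a mean of at least 5 FPKM removed all 3 genes. The difference between Mki67 and Cdk1 was -0.13 to 0.15 with 1 library left out. With 1 library left out, the difference between Top2a and Mki67 stayed below 0, at -0.40 to -0.24, as did that between Top2a and Cdk1, at -0.49 to -0.24. Both lay further from 0 with pseudocounts of 0.1 and 0.01 FPKM. They were then -0.57 and -0.61 for Top2a and Mki67, and -0.69 and -0.75 for Top2a and Cdk1. The number of changed features was 9011, and 8064 to 8335 with 1 library left out, and a minimum absolute log2 fold change of 1 left 1344 by construction, 645 of them lower. With the replicate block, the log2 fold changes of the 3 genes were as reported, with adjusted p of 0.00204 for Top2a, 0.00832 for Mki67 and 0.0202 for Cdk1, and 8768 features changed. The labels do not pair libraries with the same number, and deviations from the group means correlated at -0.03, 0.07 and 0.03 for equal numbers, against -0.07 to 0.04 for unequal ones. Some libraries correlated best with a library of another number. The alternatives for gene lists were not run. For Cdk1, read depth limits the precision, since the SD from counting alone was above the observed SD in control libraries (0.559 against 0.447 FPKM) and somewhat below it in erastin libraries (0.488 against 0.589 FPKM).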
